A study of Mus musculus with 4 samples.

Results

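The 10 genes that encode core transcription factors of fat cell formation were followed across nuclei of the mouse inguinal fat pad, a white adipose depot under the skin. They are Pparg, Rxra, Cebpa, Cebpb, Cebpd, Klf15, Ebf1, Ebf2, Zfp423 and Zeb1, taken by gene symbol from the 53715 genes that the count matrices list, and all 10 were found. Single-nucleus RNA sequencing counts transcripts in isolated nuclei, each read molecule carrying a unique molecular identifier (UMI). The 4 libraries come from C57BL/6N mice aged 6 months, with 2 libraries labelled PTRF knockout and 2 labelled wild type, each title naming its own mouse. PTRF is the former name of the caveola coat protein cavin-1, which the gene Cavin1 encodes. The series' title speaks of a distal Ptrf enhancer as the target. The allele, how it was made, and the cell types in which it acts are not given in the labels. The labels do not say whether libraries with the same number were prepared together.

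Cavin1 itself went against the labels. Its raw counts over all nuclei were 730 and 1759 in the libraries labelled knockout 1 and 2, against 40 and 9 in those labelled wild type 1 and 2. Scaled for library size, as the CPM used throughout, its level averaged 52.6 ± 6.68 in the libraries labelled knockout and 1.48 ± 0.768 in those labelled wild type (SD, n = 2 each), a log2 difference of 5.08 (SE 0.54, adjusted p = 1.05e-16 by edgeR's quasi-likelihood test with Benjamini-Hochberg adjustment). The gene named in the knockout label was thus higher in both libraries carrying that label. Groups are named here as labelled, so every direction below is that of the labels and would turn round if the labels were exchanged.

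In the classical order of adipogenesis, hormonal signals first induce C/EBPβ and C/EBPδ, which bind the genes of PPARγ and C/EBPα and switch them on. PPARγ binds DNA as a heterodimer with the retinoid X receptor, of which RXRα is a main form, and PPARγ and C/EBPα then sustain each other and activate the genes of lipid storage. The early B cell factors EBF1 and EBF2, the zinc finger proteins ZFP423 and ZEB1, and the Krüppel-like factor KLF15 act beside this pair, before commitment, after it, or in both phases.

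After filtering, 11988 and 15887 nuclei remained in the libraries labelled knockout 1 and 2, with median depths of 844.5 and 1401 UMIs, and 15528 and 6664 in those labelled wild type 1 and 2, with medians of 1022 and 933.5. Clusters were built without the 10 regulators and without related regulator genes, and were named from marker genes. A class name means resemblance by markers. Progenitors numbered 708 and 1851 nuclei in the libraries labelled knockout 1 and 2, against 1414 and 590 in those labelled wild type 1 and 2, and vascular endothelial nuclei 204 and 305 against 307 and 131 in the same order. Nuclei of the adipocyte class numbered 1427 and 2214 in the libraries labelled knockout 1 and 2, at median depths of 1427 and 3837 UMIs, against 2774 and 732 in those labelled wild type 1 and 2, at 1745 and 1686 UMIs, so the library labelled knockout 2 stood apart in depth. Their cluster had 12 of 14 adipocyte markers among its 100 leading genes. Cluster 2, a shallow cluster with no marker list among its leading genes, was kept out of every class. It held 35.1% and 16.9% of the nuclei of the libraries labelled knockout 1 and 2, against 7.86% and 33.7% of those labelled wild type 1 and 2. The adipocyte class was larger at the finer Leiden resolution 2. There it had 1849 and 2770 nuclei in the libraries labelled knockout 1 and 2, against 3071 and 817 in those labelled wild type 1 and 2. An unnamed cluster of 2593 nuclei at that resolution was led by Ucp1 and Dio2. Adipocyte nuclei may thus lie outside the class used here, and how many cluster 2 held was not tested. Doublet calling found 0 and 0 nuclei in the libraries labelled knockout 1 and 2 and 2 and 0 in those labelled wild type 1 and 2. The caller was taken not to have worked and no nuclei were removed as doublets, so doublets may remain. Pairs of libraries shared between 53 and 150 barcodes, under 1% of the smaller library of each pair.

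The C/EBP proteins and Pparg are joined through the Pparg promoters, which is why their sequences are shown. Pparg (ENSMUSG00000000440, chr6:115360951-115490399, plus strand, GRCm38) has 3 start sites in the RefSeq promoter table for GRCm38.p6, and the one farthest downstream serves the adipocyte isoform PPARγ2. The 300 bases around each start, 250 before and 50 after it, were searched on both strands for a C/EBP-type motif, TTGCNNAA, for the direct repeat bound by PPARγ with RXR (AGGTCA on both sides of a single base, in the same direction), and for the EBF palindrome (TCCC and GGGA with 2 bases between them). Capitals mark C/EBP-type matches, and both sequences are given on the plus strand, 5′ to 3′.
Pparg downstream start (chr6:115421816-115422115, plus strand): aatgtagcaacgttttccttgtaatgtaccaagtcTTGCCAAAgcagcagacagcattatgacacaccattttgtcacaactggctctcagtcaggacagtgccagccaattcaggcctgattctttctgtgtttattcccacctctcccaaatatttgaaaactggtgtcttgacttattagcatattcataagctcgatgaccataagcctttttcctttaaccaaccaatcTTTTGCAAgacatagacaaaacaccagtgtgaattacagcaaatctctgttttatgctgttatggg
Pparg upstream start (chr6:115360894-115361193, plus strand): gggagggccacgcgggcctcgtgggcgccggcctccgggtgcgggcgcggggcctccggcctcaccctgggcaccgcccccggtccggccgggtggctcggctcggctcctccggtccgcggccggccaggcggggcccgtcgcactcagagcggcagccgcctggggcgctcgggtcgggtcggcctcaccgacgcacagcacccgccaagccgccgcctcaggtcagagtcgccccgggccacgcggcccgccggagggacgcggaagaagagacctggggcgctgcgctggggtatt
The downstream promoter held 2 C/EBP-type matches, beginning 215 and 16 bases before the start, and the upstream promoters held 0. Of all 32851 promoters in the table, 10.8% held such a match, as did 2 of the 12 promoters listed for 7 of the 10 regulators, the other being a promoter of Zfp423. The direct repeat and the EBF palindrome were in 0.0396% and 0.904% of all promoters and in 0 of these 12. Promoters of Cebpd, Ebf2 and Zeb1 were not searched. A match is a run of letters and no evidence of binding, and the nuclear counts are per gene, so they do not separate the isoforms.

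Pparg, the master regulator of the fat cell, was highest in the adipocyte class. Its level there was 1652 and 4779 CPM in the libraries labelled knockout 1 and 2, against 3565 and 2842 CPM in those labelled wild type 1 and 2, with a mean over the 4 libraries of 3209.6 ± 1310.3 CPM (SD, n = 4). Vascular endothelial nuclei came next at 1454 ± 540.3 CPM, followed by the unnamed cluster 2 at 488 ± 237 CPM. The ranges of the first 2 over the libraries overlapped, since the lowest adipocyte value, in the library labelled knockout 1, lay under the highest endothelial value, in the library labelled knockout 2. Within each library the adipocyte value was the higher one. Progenitor nuclei (Pdgfra- and Dcn-type stromal cells that give rise to adipocytes) stood at 331 ± 117 CPM and macrophages at 330.1 ± 19.6 CPM, and the ranges of these 2 classes overlapped. Luminal epithelial nuclei, from the mammary gland that lies in this fat pad, were last at 108 ± 90.7 CPM.

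**Figure D1:**
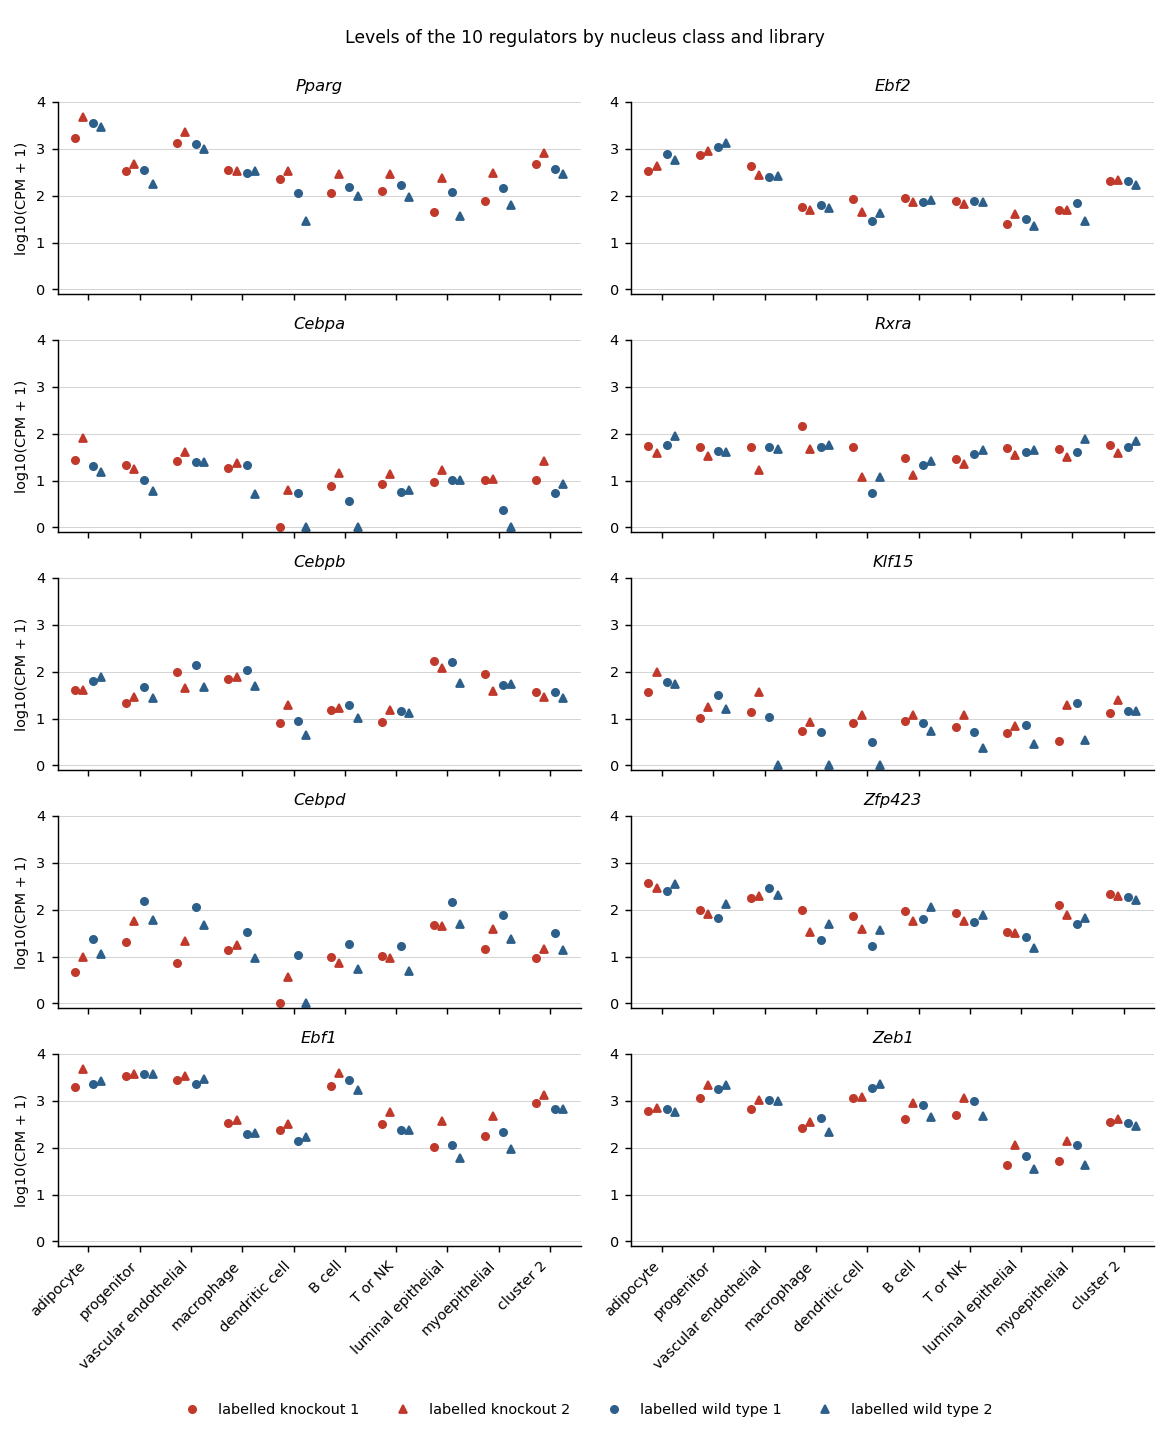
Levels of the 10 regulators as log10(CPM + 1) in 10 nucleus classes (cluster 2 included), with 1 point per library: red for the libraries labelled knockout, left, and blue for those labelled wild type, right, circles for replicate 1 and triangles for replicate 2. Pparg, Cebpa, Klf15 and Zfp423 have their highest mean in adipocytes, Ebf1, Ebf2, Cebpd and Zeb1 in progenitors, Cebpb in luminal epithelial nuclei and Rxra in macrophages.

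Free RNA from broken cells can give any droplet some adipocyte transcripts, so the share of nuclei with a UMI was set beside that in T or NK nuclei, after thinning each nucleus to 500 UMIs. Pparg had a UMI in 46.0% and 72.0% of thinned adipocyte nuclei in the libraries labelled knockout 1 and 2, against 64.1% and 58.3% in those labelled wild type 1 and 2. In T or NK nuclei the shares were 4.66% and 11.7% in the libraries labelled knockout 1 and 2, against 6.69% and 4.28% in those labelled wild type 1 and 2, at median depths of 740 and 1517 UMIs against 764 and 717 before thinning. Without thinning, 71.5% and 89.4% of adipocyte nuclei had a Pparg UMI in the libraries labelled knockout 1 and 2, against 85.3% and 80.7% in those labelled wild type 1 and 2. The 95% Wilson interval, for counting error only, was widest in the library labelled wild type 2, from 77.7% to 83.4%. No nucleus was too shallow to be thinned.

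A single source of free RNA keeps its genes in a fixed ratio within a library, so Pparg was also counted per UMI of the adipocyte secretory gene Adipoq. In adipocyte nuclei 6.45 and 8.48 Pparg UMIs were counted per Adipoq UMI in the libraries labelled knockout 1 and 2, against 17.6 and 22.2 in those labelled wild type 1 and 2. Vascular endothelial nuclei had 16.2 and 20.8 in the libraries labelled knockout 1 and 2, against 37.8 and 42.0 in those labelled wild type 1 and 2, above the adipocyte ratio in each of the 4 libraries. In T or NK nuclei, which should lack Adipoq, the ratios were 5.58 and 5.98 in the libraries labelled knockout 1 and 2. They were 9.31 and 5.92 in those labelled wild type 1 and 2. Each lay below the adipocyte ratio of its library. How far T or NK cells express Pparg themselves was not tested. The Adipoq counts behind the endothelial ratios were small, 13 and 53 in the libraries labelled knockout 1 and 2 and 10 and 3 in those labelled wild type 1 and 2.

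**Figure D2:**
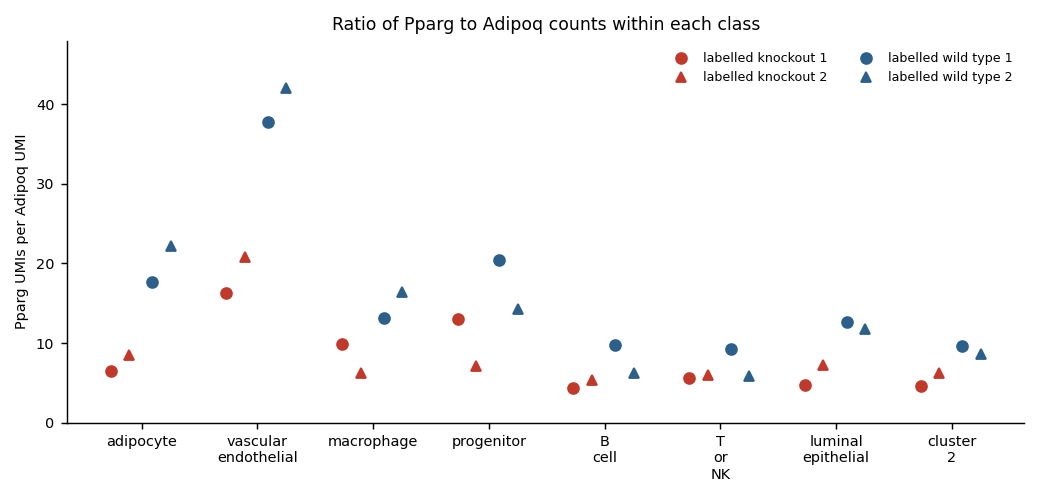
Pparg UMIs per Adipoq UMI within 8 nucleus classes, 1 point per library, with the libraries labelled knockout (red) left of those labelled wild type (blue). Endothelial nuclei lie above adipocytes in every library, from 16.2 to 42.0, and the ratios are lower in the libraries labelled knockout 1 and 2 than in those labelled wild type 1 and 2 in both classes.

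The partner receptor Rxra (chr2:27676440-27762957, plus strand) had overlapping ranges in neighbouring classes. Its means over the 4 libraries ran from 75.1 ± 48.6 CPM in macrophages and 58.6 ± 21.7 CPM in adipocytes to 18.9 ± 20.9 CPM in dendritic cells, and no class stood apart from the next. Adipocyte nuclei with a UMI after thinning were 2.65% and 1.80% in the libraries labelled knockout 1 and 2, against 2.73% and 4.22% in those labelled wild type 1 and 2. Thinned T or NK nuclei, where its mean level was 31.9 ± 9.75 CPM, gave shares of 1.15% and 0.79% in the libraries labelled knockout 1 and 2, against 1.48% and 2.04% in those labelled wild type 1 and 2. The part of background in the adipocyte share was not tested.

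The 3 C/EBP genes divided between classes. Cebpa (chr7:35119293-35121928, plus strand), the late factor that works with PPARγ, was highest in adipocytes at 34.7 ± 30.0 CPM, followed by vascular endothelial nuclei at 28.1 ± 8.23 CPM with an overlapping range. In the libraries labelled wild type the endothelial value was the higher one, 23.2 and 23.5 CPM beside 19.2 and 14.2 CPM in adipocytes. The endothelial values rest on only 7 and 3 Cebpa UMIs in the libraries labelled wild type 1 and 2. Those labelled knockout 1 and 2 had 4 and 20 there, so this order is uncertain. Cebpb (chr2:167688915-167690418, plus strand), an early factor that also serves the mammary epithelium, was highest in luminal epithelial nuclei at 125 ± 50.1 CPM and stood at 53.9 ± 17.5 CPM in adipocytes. Of the luminal clusters, the one led by the milk protein genes Csn3 and Csn1s1 had 193 and 144 CPM in the libraries labelled knockout 1 and 2, against 186 and 54.2 CPM in those labelled wild type 1 and 2. Cebpd (chr16:15887286-15891031, plus strand), the other early factor, was highest in progenitors at 71.7 ± 56.5 CPM and in luminal nuclei at 70.9 ± 50.1 CPM, and low in adipocytes at 11.4 ± 8.15 CPM. All 3 are short genes with few nuclear UMIs: over all nuclei 1563, 4477 and 2759 UMIs were counted for Cebpa, Cebpb and Cebpd. Cebpb and Cebpd are overlapped on the opposite strand by Tmem189 and Spidr, which had 2543 and 17359 UMIs, and how counting treated the strand is not given, so both levels are uncertain.

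Klf15 (chr6:90462576-90475238, plus strand), which is induced by glucocorticoids and activates the insulin-sensitive glucose transporter gene, was highest in adipocytes. It reached 61.1 ± 25.5 CPM in adipocytes, 17.8 ± 8.83 CPM in progenitors and 4.00 ± 3.04 CPM in macrophages. The adipocyte range, 34.9 to 95.8 CPM, did not overlap that of progenitors, 9.52 to 30.2 CPM. It did overlap the wide range of vascular endothelial nuclei, 0 to 36.3 CPM.

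The EBF genes were high in the stromal lineage and in the vascular endothelial class, and Ebf1 also in B cells. In that endothelial class pericyte or smooth muscle markers summed to 1847 and 1137 CPM in the libraries labelled knockout 1 and 2. They summed to 912 and 1073 CPM in those labelled wild type 1 and 2. A cluster named pericyte or smooth muscle, of 335 nuclei, formed at the finer Leiden resolution 2 and not in the main clustering. The part of such nuclei in the endothelial levels was not tested. Ebf1 (chr11:44617317-45008091, plus strand), needed in B cell as well as in fat cell development, stood at 3667 ± 223 CPM in progenitors, 2919 ± 1225 CPM in adipocytes, 2843 ± 449.6 CPM in vascular endothelial nuclei and 2622 ± 993 CPM in B cells. The ranges of these 4 classes overlapped from neighbour to neighbour and lay apart from T or NK nuclei at 341 ± 156 CPM. Ebf2 (chr14:67233292-67430918, plus strand), which marks committed precursors and the brown and beige lineage, was at 1012 ± 255 CPM in progenitors and 523 ± 193 CPM in adipocytes, against 71.7 ± 5.44 CPM in T or NK nuclei. In vascular endothelial nuclei Ebf2 stood at 303 ± 83.3 CPM, with a range that overlapped that of adipocytes. Within the progenitors Ebf2 was higher in cluster 8, whose leading genes include 6 interstitial progenitor markers of the Pi16 and Dpp4 type, than in cluster 7. It had 1252 and 1589 CPM in cluster 8 of the libraries labelled knockout 1 and 2 and 1596 and 2517 CPM in cluster 8 of those labelled wild type 1 and 2. In cluster 7 the values were 728 and 682 CPM in the libraries labelled knockout 1 and 2 and 775 and 600.5 CPM in those labelled wild type 1 and 2. Pparg ran the other way in each library, being lower in cluster 8 than in cluster 7. Cluster 8 had 107 and 348 CPM in the libraries labelled knockout 1 and 2, against 214 and 62.0 CPM in those labelled wild type 1 and 2. Cluster 7 had 381 and 509.7 CPM in the libraries labelled knockout 1 and 2, against 451 and 265 CPM in those labelled wild type 1 and 2. Such differences between clusters of the same nuclei are a description and were not tested. Ebf2 overlaps 5 genes on the opposite strand, of which 4930438E09Rik had the most UMIs over all nuclei, 1181 beside 20913 for Ebf2.

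The zinc finger genes differed from each other in pattern. Zfp423 (chr8:87661810-87959595, minus strand), a preadipocyte commitment factor that also holds white adipocytes in the white state, was highest in adipocytes at 316 ± 56.1 CPM and vascular endothelial nuclei at 217 ± 50.9 CPM, with overlapping ranges, and stood at 92.8 ± 26.9 CPM in progenitors. Zeb1 (on chromosome 18), best known as a regulator of the epithelial to mesenchymal transition, was highest in progenitors at 1797 ± 488 CPM and dendritic cells at 1617 ± 564 CPM, reached 635 ± 54.6 CPM in adipocytes, and was lowest in luminal epithelial nuclei at 64.1 ± 36.6 CPM. Zeb1 shares its locus with the antisense gene Gm10125, which had 4448 UMIs over all nuclei against 48873 for Zeb1.

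The 2 labelled groups were then compared for each class by summing counts per library, so that n is 2 libraries against 2. By edgeR's quasi-likelihood test with Benjamini-Hochberg adjustment, 0 of the 10 regulators differed at an adjusted p under 0.05 over all nuclei, in adipocytes, in progenitors or in luminal epithelial nuclei, and 0 of the 8 tested in vascular endothelial nuclei and of the 7 tested in macrophages and in B cells. The share of all tested genes called was 0.103% over all nuclei, 0.389% in adipocytes, 0.0557% in progenitors, 0.0119% in luminal epithelial nuclei, 1.82% in vascular endothelial nuclei, 0.0113% in macrophages and 0.0507% in B cells, so a count of 0 is close to the background rate. At an unadjusted p under 0.05, 2, 4, 2, 0, 1, 1 and 0 of the regulators would pass in these comparisons in that order, beside 1.18%, 4.40%, 3.89%, 2.17%, 8.60%, 1.92% and 1.43% of all tested genes. DESeq2 called 0 of them in each comparison. A single gene cannot reach an exact permutation p below 0.333 with 2 libraries against 2. The 95% intervals of the differences were wide, and a p that misses the threshold does not show that levels were alike. In sums over all nuclei, fewer cells of a type and less RNA per cell cannot be told apart.

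**Figure D3:**
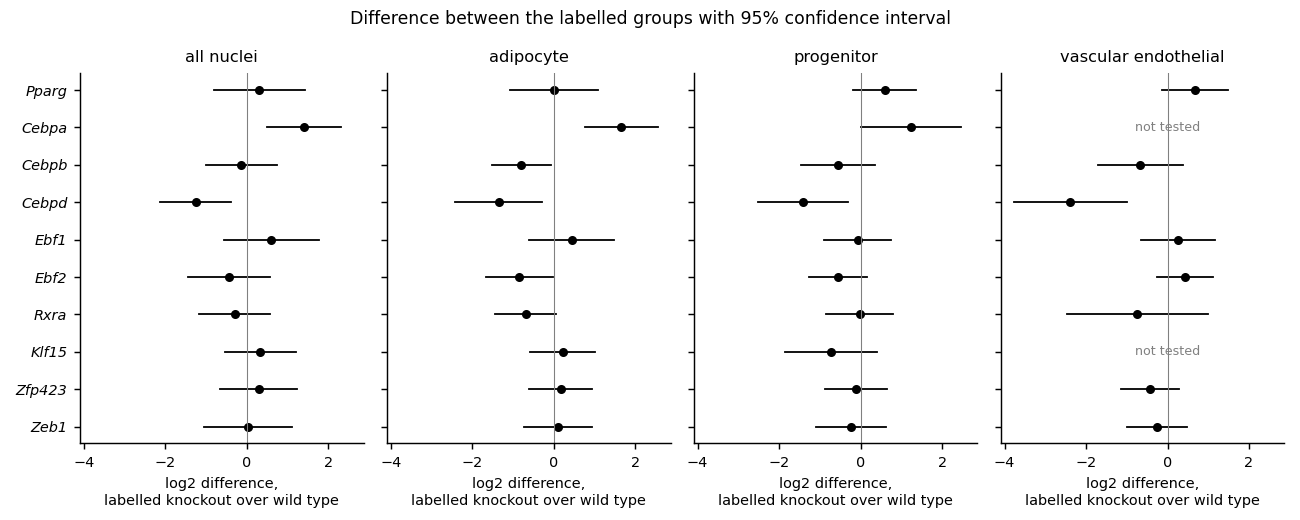
Log2 difference of each regulator, libraries labelled knockout over those labelled wild type, with its 95% confidence interval from edgeR's quasi-likelihood fit, for all nuclei, adipocytes, progenitors and vascular endothelial nuclei. Cebpa lies to the right and Cebpd to the left of 0 with intervals that exclude 0 in the first 3 panels (for Cebpd in all 4), Pparg in adipocytes is centred at 0.01, and Cebpa and Klf15 were not tested in endothelial nuclei.

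Pparg in adipocytes did not separate the groups. The mean was 3216 ± 2211 CPM in the libraries labelled knockout and 3204 ± 511 CPM in those labelled wild type (SD, n = 2 each), a log2 difference of 0.01 with a 95% interval of -1.07 to 1.08 and an adjusted p of 1 by edgeR's quasi-likelihood test. The libraries labelled knockout 1 and knockout 2 were the lowest and the highest of the 4. In progenitors Pparg had 337 and 460.4 CPM in the libraries labelled knockout 1 and 2, against 352 and 176 CPM in those labelled wild type 1 and 2, a log2 difference of 0.59 (interval -0.18 to 1.36), and the groups overlapped. Vascular endothelial nuclei had 1344 and 2231 CPM in the libraries labelled knockout 1 and 2, against 1255 and 985 CPM in those labelled wild type 1 and 2, so both libraries labelled knockout were higher there, by a log2 difference of 0.68 with an adjusted p of 0.739. In the same nuclei adipocyte markers summed to 3478 and 4497 CPM in the libraries labelled knockout 1 and 2, against 2368 and 1953 CPM in those labelled wild type 1 and 2, and lymphatic endothelial markers to 369 and 1034 CPM in the libraries labelled knockout 1 and 2, against 4744 and 2279 CPM in those labelled wild type 1 and 2. Their part in the difference was not tested. Rxra in adipocytes had 52.4 and 37.3 CPM in the libraries labelled knockout 1 and 2, against 56.1 and 88.7 CPM in those labelled wild type 1 and 2, and both libraries labelled knockout lay below both others. Its log2 difference was -0.69 (interval -1.44 to 0.06, adjusted p = 1), and that in progenitors -0.03 (interval -0.85 to 0.79).

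Groups without overlap were common among all genes. In adipocytes 5 of the 10 regulators had both libraries labelled knockout on the same side of both others (Cebpa above, and Rxra, Cebpb, Cebpd and Ebf2 below), beside 26.8% of all genes tested. The count was 3 of 10 in progenitors (Cebpa, Ebf2 and Cebpd) beside 29.1%. It was 4 of 8 in vascular endothelial nuclei (Pparg, Zfp423, Ebf2 and Cebpd) beside 37.6%. Over all nuclei it was 3 of 10 (Rxra, Cebpa and Zfp423) beside 14.9%. Luminal epithelial nuclei had 2 of 10 (Zfp423 and Cebpd) beside 28.4%, macrophages 2 of 7 (Pparg and Ebf1) beside 25.4%, and B cells 0 of 7 beside 21.7%. The separation of Pparg in endothelial nuclei is therefore of a kind that many genes of that class showed.

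Cebpa had the largest difference of the regulators in adipocytes. Raw counts there were 65 and 703 in the libraries labelled knockout 1 and 2, against 108 and 21 in those labelled wild type 1 and 2, which are 26.4 and 79.2 CPM against 19.2 and 14.2 CPM. The library labelled knockout 2 was far above the rest, and the library labelled knockout 1 only slightly above the library labelled wild type 1. The log2 difference was 1.65 (SE 0.44, interval 0.76 to 2.55), with an adjusted p of 0.127 by edgeR's quasi-likelihood test. Without the library labelled knockout 2 it was 0.62, and without the library labelled knockout 1 it was 2.24 with an adjusted p of 3.11e-05, so its size rests on the library labelled knockout 2. After thinning to 500 UMIs, 1.39% and 3.24% of adipocyte nuclei had a Cebpa UMI in the libraries labelled knockout 1 and 2, against 0.974% and 0.724% in those labelled wild type 1 and 2, beside 0.405% and 0.59% against 0.187% and 0.344% in T or NK nuclei. The same library was also highest in the summed level of the 14 adipocyte markers in adipocyte nuclei, which was 23966 and 42823 CPM in the libraries labelled knockout 1 and 2, against 23605 and 18653 CPM in those labelled wild type 1 and 2. The part of this in the Cebpa difference was not tested.

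In progenitors both libraries labelled knockout also lay above both others for Cebpa, on few counts. It had 15 and 69 UMIs in the libraries labelled knockout 1 and 2, against 16 and 4 in those labelled wild type 1 and 2, which are 20.4 and 16.6 CPM against 9.49 and 4.92 CPM. The log2 difference was 1.24 (interval 0.01 to 2.47, adjusted p = 1). Over all nuclei it was 1.40 (SE 0.47, adjusted p = 0.891), and 0.34 without the library labelled knockout 2.

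Cebpd ran the other way from Cebpa. Progenitor nuclei had 14 and 231 UMIs in the libraries labelled knockout 1 and 2, against 256 and 49 in those labelled wild type 1 and 2, which are 19.0 and 55.6 CPM against 152 and 60.3 CPM. The library labelled wild type 1 stood highest and that labelled wild type 2 close to the library labelled knockout 2. The log2 difference was -1.41 (SE 0.50, interval -2.51 to -0.32, adjusted p = 0.974 by edgeR's quasi-likelihood test). It was -0.58 without the library labelled wild type 1, -2.51 without that labelled knockout 2, and -1.90, with an adjusted p of 0.00122, without that labelled wild type 2. The progenitor nuclei were made up differently in the groups: cluster 8, in which Cebpd was higher than in cluster 7 in all libraries but that labelled knockout 1, held 11.2% and 26.9% of them in the libraries labelled knockout 1 and 2, against 34.8% and 35.6% in those labelled wild type 1 and 2. The summed level of the 9 interstitial markers in progenitor nuclei was 868 and 1751 CPM in the libraries labelled knockout 1 and 2, against 2053 and 2586 CPM in those labelled wild type 1 and 2. Their part in the Cebpd difference was not tested.

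In adipocytes Cebpd had 9 and 80 UMIs in the libraries labelled knockout 1 and 2, against 129 and 15 in those labelled wild type 1 and 2, a log2 difference of -1.35 (interval -2.43 to -0.28, adjusted p = 0.661), and of -0.62 without the library labelled wild type 1. Of the classes tested, vascular endothelial nuclei gave the largest Cebpd difference, -2.39 (SE 0.69, interval -3.78 to -1.01), with an adjusted p of 0.0584 by edgeR's quasi-likelihood test, just over the threshold. It rests on 1 and 10 UMIs in the libraries labelled knockout 1 and 2, against 34 and 6 in those labelled wild type 1 and 2. Without the library labelled wild type 2 the adjusted p was 0.0338, and without that labelled wild type 1 Cebpd did not pass the count filter. That class also held nuclei with lymphatic endothelial markers, whose summed level was 369 and 1034 CPM in the libraries labelled knockout 1 and 2, against 4744 and 2279 CPM in those labelled wild type 1 and 2, and their part in the difference was not tested. In luminal epithelial nuclei Cebpd had 46.2 and 43.5 CPM in the libraries labelled knockout 1 and 2, against 146 and 47.8 CPM in those labelled wild type 1 and 2, with a log2 difference of -1.13 that was -0.09 without the library labelled wild type 1 and -1.71, with an adjusted p of 0.0134, without that labelled wild type 2. Over all nuclei the difference was -1.25 (adjusted p = 1), and 0.02 without the library labelled wild type 1. Spidr, the gene on the opposite strand, differed by -0.84 in progenitors and -0.28 in adipocytes on the log2 scale (adjusted p = 1 and 1).

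**Figure D4:**
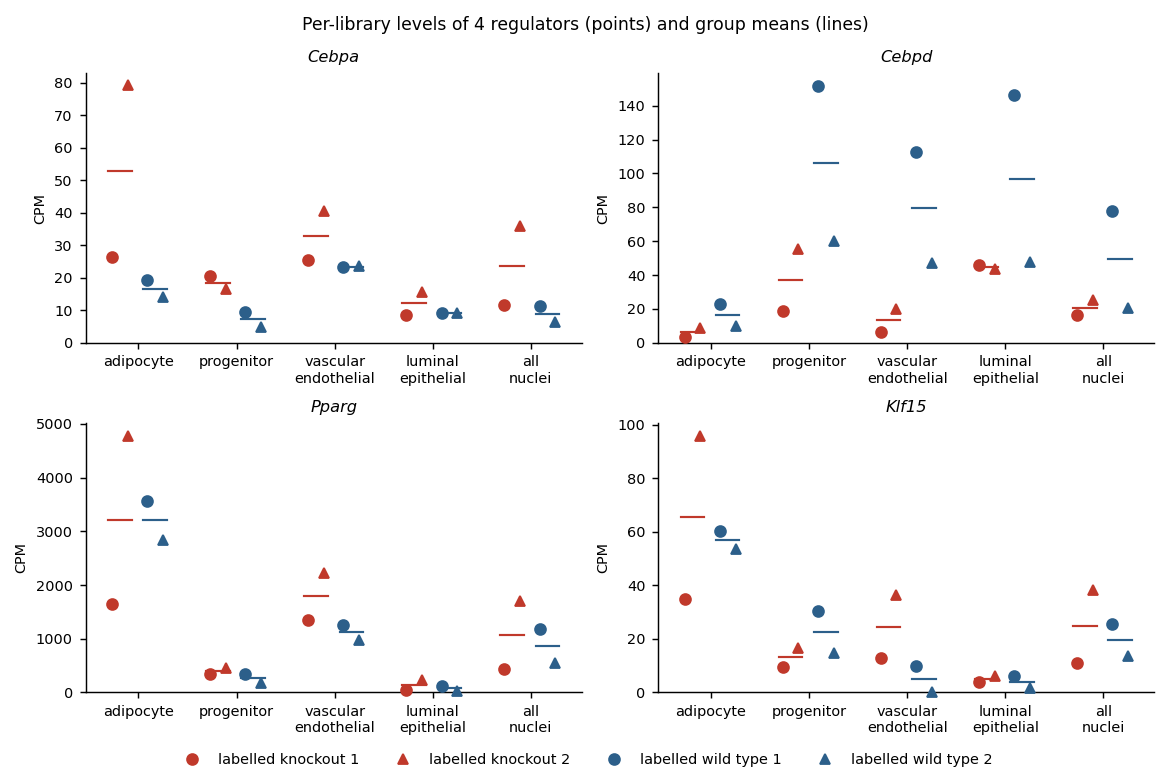
CPM of Cebpa, Cebpd, Pparg and Klf15 in 4 classes and over all nuclei, 1 point per library with the group mean as a line, libraries labelled knockout (red) left of those labelled wild type (blue). The library labelled knockout 2 is highest for Cebpa in adipocytes at 79.2 CPM, and that labelled wild type 1 is highest for Cebpd in each of the classes shown, up to 152 CPM in progenitors.

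Cebpb, the other early C/EBP gene, had in adipocytes 39.0 and 39.8 CPM in the libraries labelled knockout 1 and 2, against 62.4 and 74.5 CPM in those labelled wild type 1 and 2, with no overlap. The log2 difference was -0.79 (interval -1.52 to -0.06, adjusted p = 0.985 in edgeR's fit). In progenitors it was -0.56 (interval -1.47 to 0.36) and over all nuclei -0.13 (interval -1.01 to 0.75). In luminal epithelial nuclei, where Cebpb is highest, the values were 164 and 117 CPM in the libraries labelled knockout 1 and 2, against 161 and 56.9 CPM in those labelled wild type 1 and 2. The library labelled wild type 2 was low, and without the library labelled wild type 1 the log2 difference moved to 1.30 with an adjusted p of 0.013, against 0.35 and 1 with all 4 libraries.

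Klf15 in adipocytes followed the libraries more than the groups, with 34.9 and 95.8 CPM in the libraries labelled knockout 1 and 2, against 60.1 and 53.5 CPM in those labelled wild type 1 and 2. The library labelled knockout 1 was lowest and that labelled knockout 2 highest, and the log2 difference was 0.22 (interval -0.58 to 1.01). In progenitors Klf15 had 7 and 69 UMIs in the libraries labelled knockout 1 and 2, against 51 and 12 in those labelled wild type 1 and 2, a log2 difference of -0.73 (interval -1.86 to 0.40), and the groups overlapped.

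Ebf2 lay lower in both libraries labelled knockout in both classes of the adipocyte lineage, without being called. In adipocytes it had 327 and 419.9 CPM in the libraries labelled knockout 1 and 2, against 767 and 577 CPM in those labelled wild type 1 and 2, a log2 difference of -0.85 (SE 0.41, interval -1.67 to -0.02, adjusted p = 1 in edgeR's fit). Its share of adipocyte nuclei with a UMI after thinning was 14.3% and 14.3% in the libraries labelled knockout 1 and 2, against 25.6% and 21.9% in those labelled wild type 1 and 2. The shares in thinned T or NK nuclei were 3.52% and 3.09% in the libraries labelled knockout 1 and 2, against 3.18% and 3.79% in those labelled wild type 1 and 2. Progenitor nuclei had 751 and 891 CPM in the libraries labelled knockout 1 and 2, against 1062 and 1343 CPM in those labelled wild type 1 and 2, a log2 difference of -0.55 (interval -1.26 to 0.16). In cluster 7 of the progenitors alone the groups overlapped. In cluster 8 they were apart by a narrow margin, with 79 nuclei in the library labelled knockout 1. Cluster 8, where Ebf2 was higher, held 11.2% and 26.9% of progenitor nuclei in the libraries labelled knockout 1 and 2. It held 34.8% and 35.6% in those labelled wild type 1 and 2. The part of this make-up in the Ebf2 difference in progenitors was not tested. Vascular endothelial nuclei went the other way, with a log2 difference of 0.43 (interval -0.26 to 1.12).

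Ebf1, Zfp423 and Zeb1 differed less in these classes. Ebf1 in adipocytes had 2013 and 4706 CPM in the libraries labelled knockout 1 and 2, against 2258 and 2698 CPM in those labelled wild type 1 and 2, with the library labelled knockout 2 above the rest, and in progenitors 3337 and 3812 CPM in the libraries labelled knockout 1 and 2, against 3795 and 3723 CPM in those labelled wild type 1 and 2. The log2 differences were 0.44 (interval -0.60 to 1.48) and -0.07 (interval -0.89 to 0.75). Zfp423 in adipocytes had 373 and 295 CPM in the libraries labelled knockout 1 and 2, against 248 and 349 CPM in those labelled wild type 1 and 2, a log2 difference of 0.17 (interval -0.62 to 0.95), and the groups overlapped. Zeb1 varied least between libraries in adipocytes relative to its mean, with 615 and 700.3 CPM in the libraries labelled knockout 1 and 2, against 654 and 572 CPM in those labelled wild type 1 and 2, and a log2 difference of 0.10 (interval -0.73 to 0.93). In progenitors Zeb1 ranged from 1127 CPM in the library labelled knockout 1 to 2165 CPM in that labelled knockout 2, and in dendritic cells, for which no test was planned, both libraries labelled knockout, at 1120.3 and 1174 CPM, lay below those labelled wild type, at 1903 and 2271 CPM.

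The immune and epithelial classes gave no further call. In macrophages, where Pparg also acts, its level was 343 and 342 CPM in the libraries labelled knockout 1 and 2, against 301 and 334 CPM in those labelled wild type 1 and 2, a log2 difference of 0.11 (interval -0.63 to 0.85). Ebf1 in macrophages had 334 and 381 CPM in the libraries labelled knockout 1 and 2, against 196 and 204 CPM in those labelled wild type 1 and 2, a log2 difference of 0.85 (adjusted p = 1 in edgeR's fit), and its mean was below that of T or NK nuclei. In B cells, which depend on EBF1, the gene had 2094 and 3956 CPM in the libraries labelled knockout 1 and 2, against 2755 and 1685 CPM in those labelled wild type 1 and 2, a log2 difference of 0.45 (interval -0.94 to 1.83). Log2 differences of the other tested regulators ran from -0.19 to 0.83 in macrophages and from -0.19 to 0.71 in B cells, and those of the 8 not named for luminal epithelial nuclei from -0.02 to 1.44 there.

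Whether the difference between the labels itself differed between adipocytes and progenitors was tested as an interaction over 8 sums with the library as a block. None of the 10 regulators was called (0 of 10, beside 0.232% of 15963 genes). At an unadjusted p under 0.05 only Klf15 would pass, 1 of 10, beside 6.33% of all tested genes. Klf15 had the largest interaction, 1.08 (SE 0.45, adjusted p = 0.688 in edgeR's fit), with a higher difference in adipocytes, and Pparg the most negative, -0.79 (SE 0.38, adjusted p = 0.79). For Cebpa and Cebpd the interaction was 0.49 (interval -0.79 to 1.77) and 0.13 (interval -0.78 to 1.04).

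The genes that these factors regulate or act with were taken as 5 lists from textbook knowledge. Of 33 PPARγ target genes in adipocytes, 27 had a log2 difference above 0, with a median of 0.58, while 51.2% of all genes did, with a median of 0.01. By edgeR's quasi-likelihood test 1 was called higher and 1 lower: Adrb3, the β3-adrenergic receptor of lipolysis, had 814 and 978 CPM in the libraries labelled knockout 1 and 2, against 258 and 187 CPM in those labelled wild type 1 and 2 (log2 difference 2.01, adjusted p = 0.0195), and Cidea, a lipid droplet protein of brown and beige fat, had 23.1 and 9.68 CPM against 40.6 and 114 CPM in the same order (-2.27, adjusted p = 0.038). Without the library labelled knockout 2 the count above 0 was 19 of 33 and the median 0.22. The call of Adrb3 was lost without either library labelled wild type (adjusted p = 0.567 without the first and 1 without the second), and that of Cidea without the library labelled wild type 2 (log2 difference -1.38, adjusted p = 1). Acsl1 and Fabp4, among the most abundant targets, had log2 differences of 0.76 and 0.23, neither of them called. Over all nuclei 28 of 33 lay above 0, and Lep, which encodes the fat hormone leptin, and Adrb3 were called higher (2.03 and 2.12 on the log2 scale, adjusted p = 0.0136 and 0.0327). Neither was called when any one library was left out, and without the library labelled knockout 2 the count above 0 was 18, without that labelled wild type 2 19. In vascular endothelial nuclei 22 of 23 lay above 0 and Cfd, Acsl1 and Cidec were called higher (1.61, 1.38 and 1.64, adjusted p = 0.00764, 0.0212 and 0.0217), while adipocyte markers in that class summed to 3478 and 4497 CPM in the libraries labelled knockout 1 and 2, against 2368 and 1953 CPM in those labelled wild type 1 and 2. Their part in these calls was not tested, and all 3 calls were lost without the library labelled wild type 1 or that labelled wild type 2, and those of Cfd and Cidec also without that labelled knockout 2. In progenitors 25 of 29 tested targets lay above 0 and 0 were called, and without the library labelled knockout 2 13 of 27 lay above 0. With DESeq2 the calls of Adrb3 and Cidea in adipocytes remained. That of Adrb3 was lost with the regulators kept in the clustering features (adjusted p = 0.0655), and that of Cidea with nuclei of at least 1000 UMIs and 500 genes (adjusted p = 0.0779). Those of Lep and Adrb3 over all nuclei were lost with DESeq2, with no filter on low counts and with nuclei of at least 1000 UMIs and 500 genes, and that of Lep also with classes at equal shares. Those of Cfd, Acsl1 and Cidec in endothelial nuclei were lost with DESeq2, with no filter on low counts and at Leiden resolution 2. None were called in macrophages, B cells or luminal epithelial nuclei, where 19 of 20, 26 of 29 and 27 of 31 tested targets lay above 0. The part of free RNA in these counts was not tested. Adipocyte markers are among the targets, and the summed level of those markers was highest in the library labelled knockout 2.

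Genes induced by glucocorticoids, which also induce Cebpd and Klf15 in cultured preadipocytes, lay on the other side. In adipocytes 1 of 14 was above 0, the median was -0.94, and 4 were called lower by edgeR's quasi-likelihood test: the metallothioneins Mt2 (-3.48 on the log2 scale, adjusted p = 1.97e-05) and Mt1 (-2.70, 0.000242), the pyruvate dehydrogenase kinase Pdk4 (-1.83, 0.00791) and the receptor cochaperone Fkbp5 (-2.55, 0.0439). Fkbp5 had 76.3 and 356 CPM in adipocytes of the libraries labelled knockout 1 and 2, against 1540.0 and 1010.3 CPM in those labelled wild type 1 and 2. Mt2 and Mt1 were called with any one library left out, and Pdk4 and Fkbp5 were not called without the library labelled wild type 1 (adjusted p = 0.0777 and 0.13) or that labelled wild type 2 (0.383 and 0.0514). With DESeq2 the calls of Mt2, Mt1 and Pdk4 remained and that of Fkbp5 was lost, as it was with nuclei of at least 1000 UMIs and 500 genes (adjusted p = 0.737 and 0.0646). That of Pdk4 was lost with no filter on low counts (adjusted p = 0.0589). Without the library labelled knockout 1, or that labelled wild type 2, 3 of 14 lay above 0. The count was 2 of 13 without that labelled wild type 1. Over all nuclei Mt2 was called lower (-2.36, adjusted p = 0.00134), and in vascular endothelial nuclei Fkbp5 was (-1.62, adjusted p = 0.0123). Neither call held with each library left out, that of Mt2 being lost without the library labelled knockout 1, knockout 2 or wild type 1, and that of Fkbp5 without either library labelled wild type. The Mt2 call over all nuclei was also lost with DESeq2, with classes at equal shares and with nuclei of at least 1000 UMIs and 500 genes (adjusted p = 0.304, 0.407 and 0.116). The endothelial Fkbp5 call was also lost at Leiden resolution 2 and with no filter on low counts (adjusted p = 1 and 0.32). In progenitors 3 of 13 lay above 0 with a median of -1.19 and 0 called, where the most abundant, Zbtb16, Fkbp5 and Errfi1, had log2 differences of -1.22, -1.23 and -1.74. Without the library labelled wild type 1, 5 of 12 lay above 0 there, with a median of -0.15. The lists were assembled with earlier results of these data known, so their directions are no independent evidence.

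**Figure D5:**
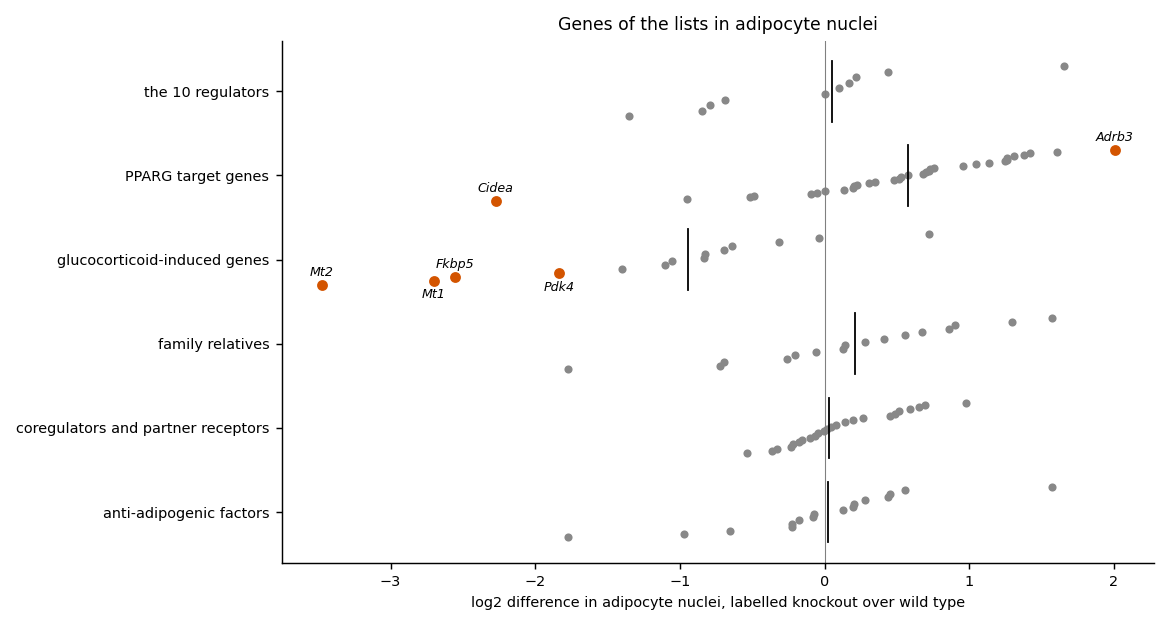
Log2 difference in adipocyte nuclei, libraries labelled knockout over those labelled wild type, of the 10 regulators and of each gene of the 5 lists, 1 point per gene, with a black line at the median of each row and called genes named in orange. The PPARγ targets lie mostly right of 0 (median 0.58) and the glucocorticoid-induced genes left of it (median -0.94), and 0 of the 10 regulators are called.

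Relatives and partners of the regulators gave few calls. Among 17 family relatives, 16 were tested in adipocytes and 0 were called. Zeb2, the paralog of Zeb1, had 1881 and 2996 CPM in the libraries labelled knockout 1 and 2, against 902 and 735 CPM in those labelled wild type 1 and 2 (log2 difference 1.57, adjusted p = 0.226), and Ppara and Ebf3 differed by -0.72 and -0.26. Among 24 coregulators and partner receptors 0 were called in adipocytes, progenitors, vascular endothelial nuclei or over all nuclei, and the most abundant in adipocytes, Nfia, Ncor1 and Nfib, differed by -0.04, 0.26 and 0.02. Among 20 anti-adipogenic factors 0 were called in adipocytes and progenitors, where Tcf7l2, a nuclear effector of Wnt signalling, differed by 0.19 and 0.33. In vascular endothelial nuclei 2 of them were called lower, Nr2f2 (-1.42, adjusted p = 0.0205), which specifies venous and lymphatic endothelium, and Zfp521 (-1.31, adjusted p = 0.0322), an antagonist of ZFP423 that is also a family relative. Both calls were lost without the library labelled wild type 1 or wild type 2, that of Nr2f2 also without that labelled knockout 2 and that of Zfp521 also without that labelled knockout 1. Both were also lost with DESeq2 (adjusted p = 0.147 for Nr2f2 and 0.0832 for Zfp521), at Leiden resolution 2 (0.371 and 1) and with no filter on low counts (0.653 and 0.92), and that of Nr2f2 with nuclei of at least 1000 UMIs and 500 genes (0.0735). The lymphatic marker sums given above for that class moved the same way, and their part was not tested.

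Genes with the pattern most like each regulator were ranked by Pearson's r of log2(CPM + 1) over 40 sums of 10 classes and 4 libraries, among 12912 genes. The sums share libraries and depth, so these values are a description. Pparg was most like Fabp4 (0.93), Lpl (0.92) and Cd36 (0.91), which serve fatty acid uptake and transport. Cebpa was most like Thrsp (0.84), Pnpla2 (0.79) and Pex11a (0.77), Klf15 most like Retn (0.87), Slc1a5 (0.87) and Svep1 (0.86), and Rxra, with the weakest likenesses, most like Isoc2a (0.69), Lmna (0.67) and Cd99l2 (0.67). For Cebpb they were Gab1 (0.84), Gas6 (0.84) and Rin2 (0.83), and for Cebpd Anxa1 (0.84), Cp (0.83) and Snx21 (0.82). Ebf1 was most like Rnf144a (0.87), Nid1 (0.86) and Sox5 (0.84), Ebf2 most like Meis2 (0.95), Cped1 (0.94) and B3galt1 (0.94), and Zfp423 most like Tspan18 (0.93), Ebf3 (0.90) and Gnai1 (0.87), of which Ebf3 is another EBF gene. Zeb1 was most like Gm10125 (0.86), Papss2 (0.83) and Akap13 (0.80), the first being its overlapping antisense gene. Among the regulators themselves Ebf1 and Ebf2 were the most alike pair (0.84) and Cebpb and Zeb1 the least (-0.57).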

How the data were processed

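The authors deposited raw UMI counts per gene and barcode for 4 libraries, limited to barcodes of at least 500 UMIs. Per the labels' protocols, nuclei were prepared with the Singleron GEXSCOPE kit and sequenced on an Illumina NovaSeq, and per the submitters' processing notes Seurat 4.3.0 and build GRCm38 (mm10) were used. The sources used here give neither the aligner nor the strand setting. All 4 matrices entered the comparison and 0 value columns were left unused. Totals were 14039227 and 35134206 UMIs in the libraries labelled knockout 1 and 2, against 22585610 and 8855578 in those labelled wild type 1 and 2, and Wilson intervals cover counting error only.

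Nuclei with under 300 genes or over 10% mitochondrial counts were removed, leaving 50067. Counts were clustered with scanpy 1.11.5 (2000 variable genes, 30 components, 15 neighbours, Leiden resolution 1) without 66 regulator genes, and clusters were named from marker lists when at least 3 markers were among the 100 leading genes. Scrublet called under 0.5% of nuclei, which was taken as a caller that had not worked, and no nuclei were removed as doublets. The labels do not say whether doublets had been removed before deposit.

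Raw counts were summed per library and class and tested with edgeR 4.0.16 (TMM scaling, filterByExpr, quasi-likelihood test, Benjamini-Hochberg over all genes tested, threshold 0.05), run in R 4.3.3. The test was also tried on simulated data with the same fixed dispersion for every gene. Such data do not show how the test performs on libraries that differ as these do. CPM values use TMM-scaled library sizes. DESeq2 1.42.0, limma 3.58.1 (log2 of CPM + 1), other filters, clusterings and omitted libraries were alternatives. Each title names its own mouse, and nothing more says how libraries were replicated. All 10 regulators are named in every comparison, called list genes are named (at most 12 a list), and where fewer than 3 are called the 3 with the highest mean CPM are given, except that 1 gene's result is not reported here. The 10 regulators and the lists were chosen with earlier results of these data known. Promoters are RefSeq's for GRCm38.p6, and 7 regulators were matched. A class needed at least 50 nuclei in every library.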

Additional observations from a re-analysis of the deposited data

How the results depend on the processing

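The counts of genes called were 29 over all nuclei, 66 in adipocytes, 7 in progenitors, 105 in endothelial nuclei, 1 in macrophages, 7 in B cells, 2 in luminal nuclei and 37 in the interaction. They moved by over 1.5 times as follows. With DESeq2 they were 13 over all nuclei, 27 in progenitors, 39 in endothelial nuclei, 1 in B cells and 12 in luminal nuclei. With no filter on low counts they were 36 in progenitors, 28 in endothelial nuclei, 4 in macrophages, 4 in B cells, 56 in luminal nuclei and 99 in the interaction. With nuclei of at least 1000 UMIs and 500 genes they were 3 over all nuclei, 13 in progenitors, 1 in B cells and 1 in luminal nuclei. At Leiden resolution 2 they were 2 in endothelial nuclei and 4 in B cells. With the regulators kept in the clustering features they were 4 in progenitors. With classes at equal shares in limma they were 15 over all nuclei. Other counts were within 1.5 times. With no filter on low counts the log2 difference was 0.014 for Zeb1 in macrophages. With nuclei of at least 1000 UMIs and 500 genes the log2 difference was -0.042 for Zeb1 over all nuclei, -0.012 for Pparg in adipocytes, 0.0093 for Ebf1 in progenitors, 0.033 for Rxra in progenitors, -0.023 for Pparg in macrophages, 0.56 for Zfp423 in B cells and 0.032 for Rxra in luminal nuclei. At Leiden resolution 2 the log2 difference was -0.0033 for Pparg in adipocytes, 0.044 for Zeb1 in endothelial nuclei, 0.049 for Cebpb in macrophages and 0.14 for Rxra in luminal nuclei. With the regulators kept in the clustering features the log2 difference was -0.0065 for Pparg in adipocytes. With classes at equal shares in limma the log2 difference was 0.020 for Cebpb over all nuclei and -0.23 for Zeb1 over all nuclei. Without thinning, the mean share of adipocyte nuclei with a UMI was 81.7% for Pparg, 7.58% for Cebpa, 9.03% for Cebpb, 2.04% for Cebpd, 84.9% for Ebf1, 45.1% for Ebf2, 10.2% for Rxra, 11.6% for Klf15, 38.4% for Zfp423 and 53.6% for Zeb1. In the alternatives other than leaving out a library, 410 regulator values kept their direction and their side of the threshold, 20 changed sign and 2 became called, Cebpa in adipocytes and Cebpd in progenitors, both under the block of crossed replicate numbers. The cause of these changes was not tested. 

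Leaving out each library in turn, with the lone library of a group assumed to vary like the others, gave counts of 5 to 18 over all nuclei, 23 to 209 in adipocytes, 44 to 75 in progenitors, 48 to 155 in endothelial nuclei, 3 to 11 in macrophages, 0 to 5 in B cells, 0 to 401 in luminal nuclei and 20 to 48 in the interaction. Among the regulators, 51 log2 differences changed sign, 5 became called and 229 did neither. Over all nuclei the ranges were -0.99 to 0.96 for Pparg, -0.70 to 0.67 for Cebpb, -1.97 to 0.021 for Cebpd, -0.39 to 1.17 for Ebf1, -0.84 to 0.94 for Klf15 and -0.80 to 0.53 for Zeb1. In adipocyte nuclei the ranges were -0.97 to 0.61 for Pparg, -0.31 to 0.96 for Ebf1, -0.72 to 0.78 for Klf15, -0.071 to 0.42 for Zfp423 and -0.0068 to 0.23 for Zeb1. In progenitor nuclei the ranges were -0.19 to 0.033 for Ebf1, -0.35 to 0.32 for Rxra, -0.55 to 0.40 for Zfp423 and -0.81 to 0.17 for Zeb1. In vascular endothelial nuclei the ranges were -1.17 to 0.43 for Cebpb and -0.65 to 0.019 for Zeb1. In macrophage nuclei the ranges were -0.57 to 0.59 for Cebpb, -0.16 to 1.48 for Rxra and -0.46 to 0.51 for Zeb1. In B cells the ranges were -0.14 to 1.27 for Pparg, -0.28 to 0.81 for Cebpb, -0.10 to 0.92 for Ebf1, -0.020 to 0.22 for Ebf2, -0.85 to 0.40 for Rxra, -0.51 to 0.24 for Zfp423 and -0.64 to 0.60 for Zeb1. In luminal epithelial nuclei the ranges were -0.84 to 1.97 for Pparg, -0.12 to 0.77 for Cebpa, -0.21 to 1.30 for Cebpb, -0.15 to 0.62 for Ebf2, -0.26 to 0.18 for Rxra, -0.31 to 1.44 for Klf15 and -0.25 to 1.23 for Zeb1. For the interaction the ranges were -0.67 to 1.11 for Cebpa, -0.81 to 0.22 for Cebpb, -0.012 to 0.94 for Ebf1 and -0.63 to 0.13 for Ebf2. 

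Libraries with the same number did not deviate together: the correlation of their deviations from the group means was -0.66 over all nuclei, -0.36 in adipocytes and -0.29 in progenitors, so the numbers were not taken to pair the samples. With the replicate number as a block the counts of genes called that moved were 4 over all nuclei, 32 in adipocytes, 11 in progenitors, 2 in macrophages, 0 in B cells and 0 in luminal nuclei, and the log2 difference was 0.0028 for Cebpb over all nuclei, -0.11 for Zeb1 over all nuclei and -0.18 for Pparg in adipocytes. The block ended the calls of Lep, Adrb3 and Mt2 over all nuclei and of Adrb3 in adipocytes. A block of crossed numbers, added after the correlations were seen, gave 182 in adipocytes, 170 in progenitors, 55 in endothelial nuclei, 38 in macrophages, 149 in B cells and 4 in luminal nuclei, with Cebpa called in adipocytes and Cebpd in progenitors; it ended the calls of Lep over all nuclei and of Cidec, Nr2f2, Acsl1 and Zfp521 in endothelial nuclei. Under the crossed block the log2 difference of Zeb1 over all nuclei was -0.10 and that of Pparg in adipocytes -0.18. Low counts limit the precision of Cebpa, Cebpb, Cebpd, Klf15 and Rxra.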
